A study of Macaca mulatta with 27 samples.

Results

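Retinoic acid (RA) synthesis and response was followed through 9 genes, chosen by symbol from the 17967 genes of the count tables. They are the RA-synthesizing enzymes ALDH1A1, ALDH1A2, and ALDH1A3, the cytosolic binding proteins CRABP1 and CRABP2, the nuclear receptors RARA, RARB, and RARG, and the RA-degrading enzyme CYP26A1. All 9 symbols were found in the tables of all 27 libraries.

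RA is made from vitamin A in the cell. Retinol is first oxidized to retinaldehyde, which the ALDH1A enzymes oxidize irreversibly to RA. CRABP2 carries RA to the receptors, whereas CRABP1 is known for holding RA in the cytosol and presenting it to the enzymes that break it down. The RAR receptors bind DNA as partners of RXR receptors, and RARB and CYP26A1 are themselves classical RA target genes, so that RA raises both one of its receptors and the enzyme that removes it. In the vertebrate embryo RA patterns the hindbrain, spinal cord, and somites through HOX genes, and in cultured pluripotent stem cells (PSCs) it is a widely used inducer of differentiation.

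The libraries were bulk RNA-seq of rhesus macaque embryonic stem cells, 6 of primed cells and 3 each of cells labelled naive by protocol, namely TL-CDK8i (TL-CDK8/19i in the study's text), TL2i, 4i/L/b, t2iLGöY, LCDM (EPS), E-NHSM, and NHSM-v. All groups, the primed cells included, came from 1 clonal line, LyonES-tGFP-(S3), which carries a tauGFP transgene under the ubiquitous CAG promoter and a lentiviral STAT3-ERT2 transgene that tamoxifen activates. TL2i cells received tamoxifen, LIF, and inhibitors of MEK and GSK3β, and in TL-CDK8i cells the CDK8/19 inhibitor CNIO-47799 stood in for the MEK and GSK3β inhibitors. The other 5 protocols were run without tamoxifen, which leaves STAT3-ERT2 inactive. The agents of their media, and whether any of them held retinoids, are not given in the sources used here. Primed cells were passaged as mechanically cut clumps and reprogrammed cells as single cells, so protocol and passaging cannot be told apart. Nothing in the labels says that replicates were separate cultures, so the p-values measure the spread between these libraries, which may be technical.

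Total counts per library ranged from 7111886 to 20760914. Levels are in CPM, counts scaled to a common library size by TMM over all libraries, and serve to compare groups for 1 gene, not genes with each other. The columns of primed cells carry the letters J and K, with 3 libraries each. The naive label was checked against marker genes. The summed CPM of 7 markers of pluripotent cells was 5436 to 6130 in primed libraries and 6294 to 6351 in E-NHSM, 1514 to 2118 in TL-CDK8i, and 121 to 514 in the other 5 protocols. NANOG and PRDM14 were at 0 in all NHSM-v libraries, and NANOG and TDGF1 were at 0 in all t2iLGöY libraries, which goes against a pluripotent identity of these cells. The summed CPM of 5 neuron markers was 64.4 to 122 in primed cells and reached 3130 to 3461 in LCDM (EPS), and that of 8 fibroblast markers was 1138 to 2407 in primed cells, 407 to 451 in E-NHSM, 8712 to 11284 in TL-CDK8i, and 11630 to 15109 in 4i/L/b. Most of the fibroblast sums in primed cells, TL-CDK8i, and 4i/L/b came from COL1A1, with means of 1291, 7376, and 9228 CPM. Of the 8 fibroblast markers, 7 were higher in 4i/L/b than in primed cells and 1 was lower. In bulk RNA, fewer cells of a type and less RNA per cell cannot be told apart.

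**Figure D1:**
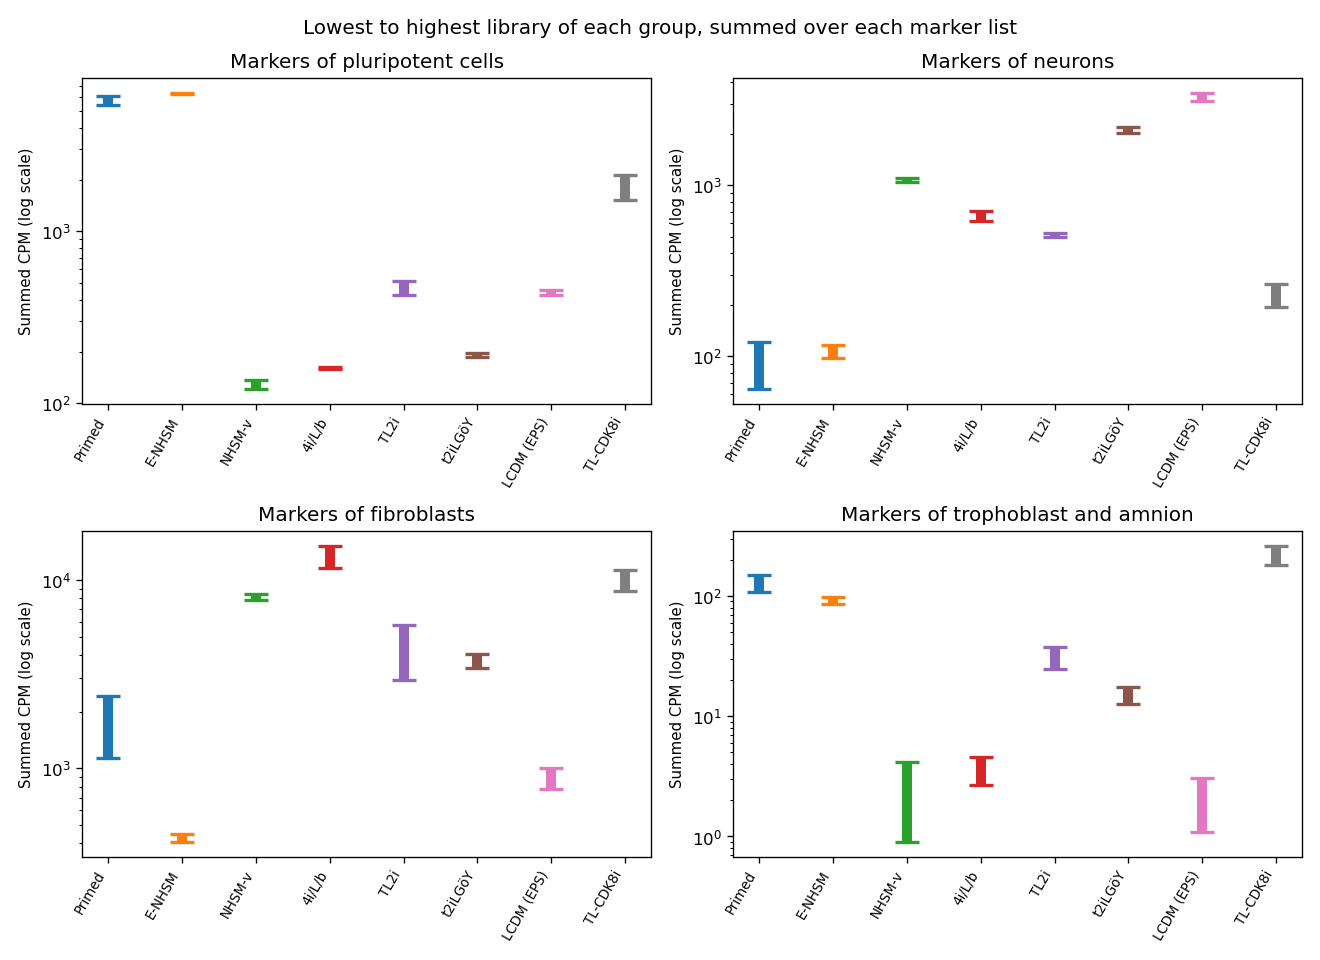
Summed CPM (log scale) of 4 marker lists by group, each bar running from the lowest to the highest library of the group. Pluripotent markers are at 5436 or more in primed and E-NHSM libraries and lie between 121 and 514 in LCDM (EPS), t2iLGöY, TL2i, NHSM-v, and 4i/L/b, where neuron markers are higher than in primed cells.

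The first question was how each protocol differed from primed cells. A gene was called higher or lower when edgeR's quasi-likelihood test gave a Benjamini-Hochberg adjusted p under 0.05 over all genes tested in that comparison. CRABP1 rose in 6 of 7 protocols and fell in E-NHSM. RARB fell in 6 protocols and rose in TL-CDK8i, and RARG fell in 6 protocols and was not called in TL-CDK8i. The pathway thus did not move as a block, since a binding protein rose in the same cells in which receptors fell.

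In E-NHSM cells 5 of the 7 members tested fell, against 15.1% of all genes tested, and the other 2 were not called. The share of all genes called higher was 11.1% there. Among the 5, RARB had 10, 17, and 5 counts in E-NHSM and passed the filter on low counts through primed cells. Its direction was thus set by the filter, and it adds nothing to the comparison with all genes. No member was called higher in E-NHSM by edgeR, at an unadjusted p under 0.05 (0 members), or by DESeq2 (0 members). In TL-CDK8i cells 7 of the 8 tested rose, against 22.3% of all genes, with 23.8% of all genes lower. Among the 7, ALDH1A2 and ALDH1A3 passed the filter on low counts through TL-CDK8i, where they were high. Their direction was thus set by the filter, and they add nothing to the comparison with all genes. No member was called lower in TL-CDK8i by edgeR, at an unadjusted p under 0.05 (0 members), or by DESeq2 (0 members). The count of 7 fell to 4 without TL-CDK8i replicate 2 and to 4 without TL-CDK8i replicate 3. E-NHSM and TL-CDK8i, the protocols with the highest pluripotent marker sums, thus had calls of a single and opposite direction, those set by the filter included. Fibroblast markers moved with both, since 5 of 6 tested fell in E-NHSM (median log2 fold change -2.003) and 6 of 8 rose in TL-CDK8i (median 2.41). The tested sets differ, because LUM and DCN had 0 counts in primed and E-NHSM libraries. In TL-CDK8i they passed the filter through that group, so their direction was set by it. In E-NHSM, 2 of 3 neural progenitor markers fell as well, and of 5 neural crest markers 2 fell and 1 rose. Of 7 pluripotent markers there, 3 rose and 2 fell. Of markers of trophoblast and amnion, 2 of 3 tested fell in E-NHSM, whereas in TL-CDK8i 2 of 4 rose and 1 fell. Of neuron markers, 3 of 5 rose in TL-CDK8i, and in E-NHSM 1 of 4 rose and 1 fell. Of 5 neural crest markers in TL-CDK8i, 2 rose and 1 fell. Other markers went against the members in TL-CDK8i, where all 7 pluripotent and 2 of 3 neural progenitor markers fell. The part of these markers in the members' calls was not tested.

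The other 5 protocols mixed both directions. In NHSM-v cells 1 of 6 members tested rose and 3 fell, with 28.0% and 30.6% of all genes higher and lower. In 4i/L/b cells 3 of 8 rose and 3 fell, against 26.6% and 29.0% of all genes. In TL2i cells 3 of 8 rose and 3 fell, against 25.6% and 25.2%. ALDH1A1, CRABP1, and CRABP2 were higher and RARB and RARG lower in both 4i/L/b and TL2i, and the remaining lower call was RARA in 4i/L/b and CYP26A1 in TL2i. In t2iLGöY cells 1 of 6 rose and 5 fell, against 27.1% and 27.2%. In LCDM (EPS) cells 1 of 6 rose and 3 fell, against 28.2% and 28.9%. Members left untested had too few counts for edgeR's filter, and those that passed it through 1 high group had to differ, so these counts do not describe the 9 genes as a set. All 7 comparisons share the primed libraries.

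**Figure D2:**
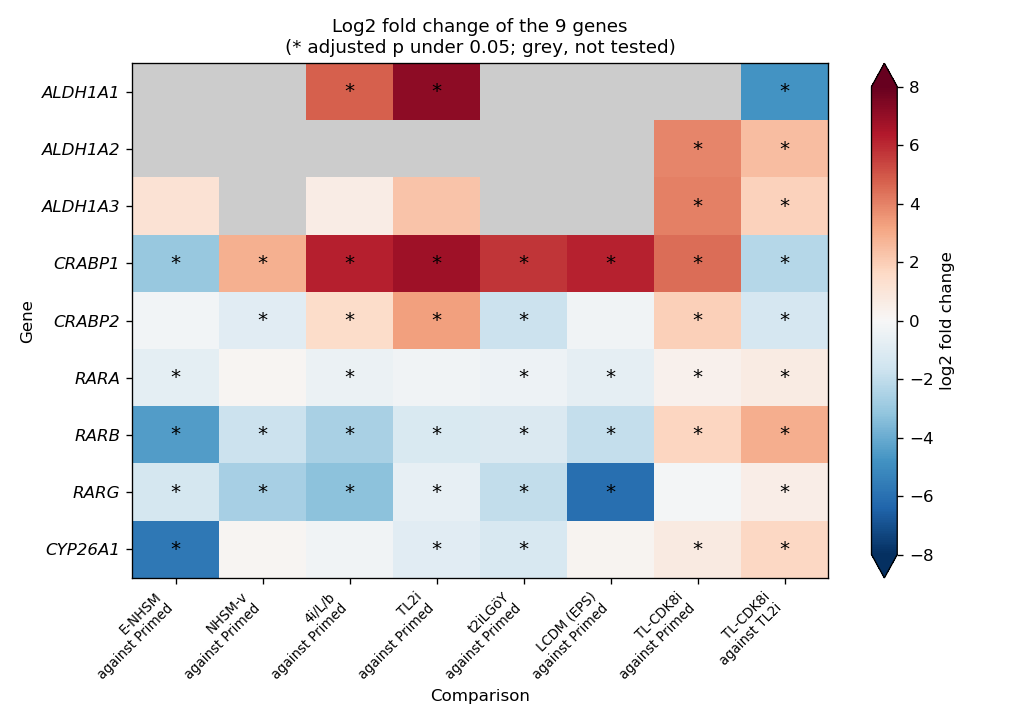
Log2 fold change (color, limited to 8 in either direction) of the 9 genes in 8 comparisons, with an asterisk for an adjusted p under 0.05 and grey for genes not tested. CRABP1 is higher in 6 of 7 protocols than in primed cells, RARB and RARG are lower in 6, and the E-NHSM column holds lower calls only.

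The ALDH1A enzymes were near the detection limit in most groups, and each was high in a single protocol or a pair of them. ALDH1A1 had 13.9, 21.3, and 17.8 CPM in the 3 TL2i libraries and 3.27, 4.38, and 3.37 CPM in those of 4i/L/b. In primed cells it had 7 counts in library J2 (0.755 CPM) and 0 counts in the other 5. The TL2i and 4i/L/b libraries overlapped neither each other nor any other group. Between the other groups, whose means were 0.117 to 0.901 CPM, the ranges of neighbors in the order overlapped. ALDH1A1 rose in TL2i (log2 fold change 7.14, SE 0.87, adjusted p = 1.41e-05) and in 4i/L/b (4.76, SE 1.28, adjusted p = 0.0061). Without primed library J2 all primed counts are 0, and the fitted log2 fold changes became 10.86 and 8.24, values that depend on the prior count. In the other 5 protocols ALDH1A1 was not tested.

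ALDH1A2, the main source of RA in the early embryo, was tested in TL-CDK8i alone among the 7 protocols. Its levels there were 1.95, 4.46, and 2.90 CPM, from 17, 40, and 30 counts. The highest library of any other group had 0.637 CPM, in TL2i, so TL-CDK8i stood apart without overlap. E-NHSM libraries had 0 counts in all 3 replicates. ALDH1A2 rose in TL-CDK8i with a log2 fold change of 3.89 (SE 1.12, adjusted p = 0.0107). Without TL-CDK8i replicate 2 the adjusted p was 0.0736, and without primed library K3 the log2 fold change was 4.71.

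ALDH1A3 was also highest in TL-CDK8i, at 2.41, 9.47, and 11.8 CPM. TL2i followed with 0.931, 2.16, and 3.39 CPM, and the ranges of TL-CDK8i and TL2i overlapped. In primed cells 4 libraries had 0 counts, K2 had 0.346 CPM, and K3 had 2.22 CPM. The rise in TL-CDK8i was 4.06 on the log2 scale (SE 1.20, adjusted p = 0.0123). It missed the threshold without TL-CDK8i replicate 2 (adjusted p = 0.0538), without replicate 3 (0.0747), and with DESeq2 (0.0861), and the log2 fold change became 6.28 without primed K3. In TL2i, E-NHSM, and 4i/L/b the log2 fold changes of 2.27, 1.17, and 0.56 did not pass the test, but that of TL2i was called without primed K3 (4.54, adjusted p = 0.00947) and with the primed J libraries alone (7.80, adjusted p = 0.00504), in which ALDH1A3 had 0 counts, so that the latter value depends on the prior count.

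**Figure D3:**
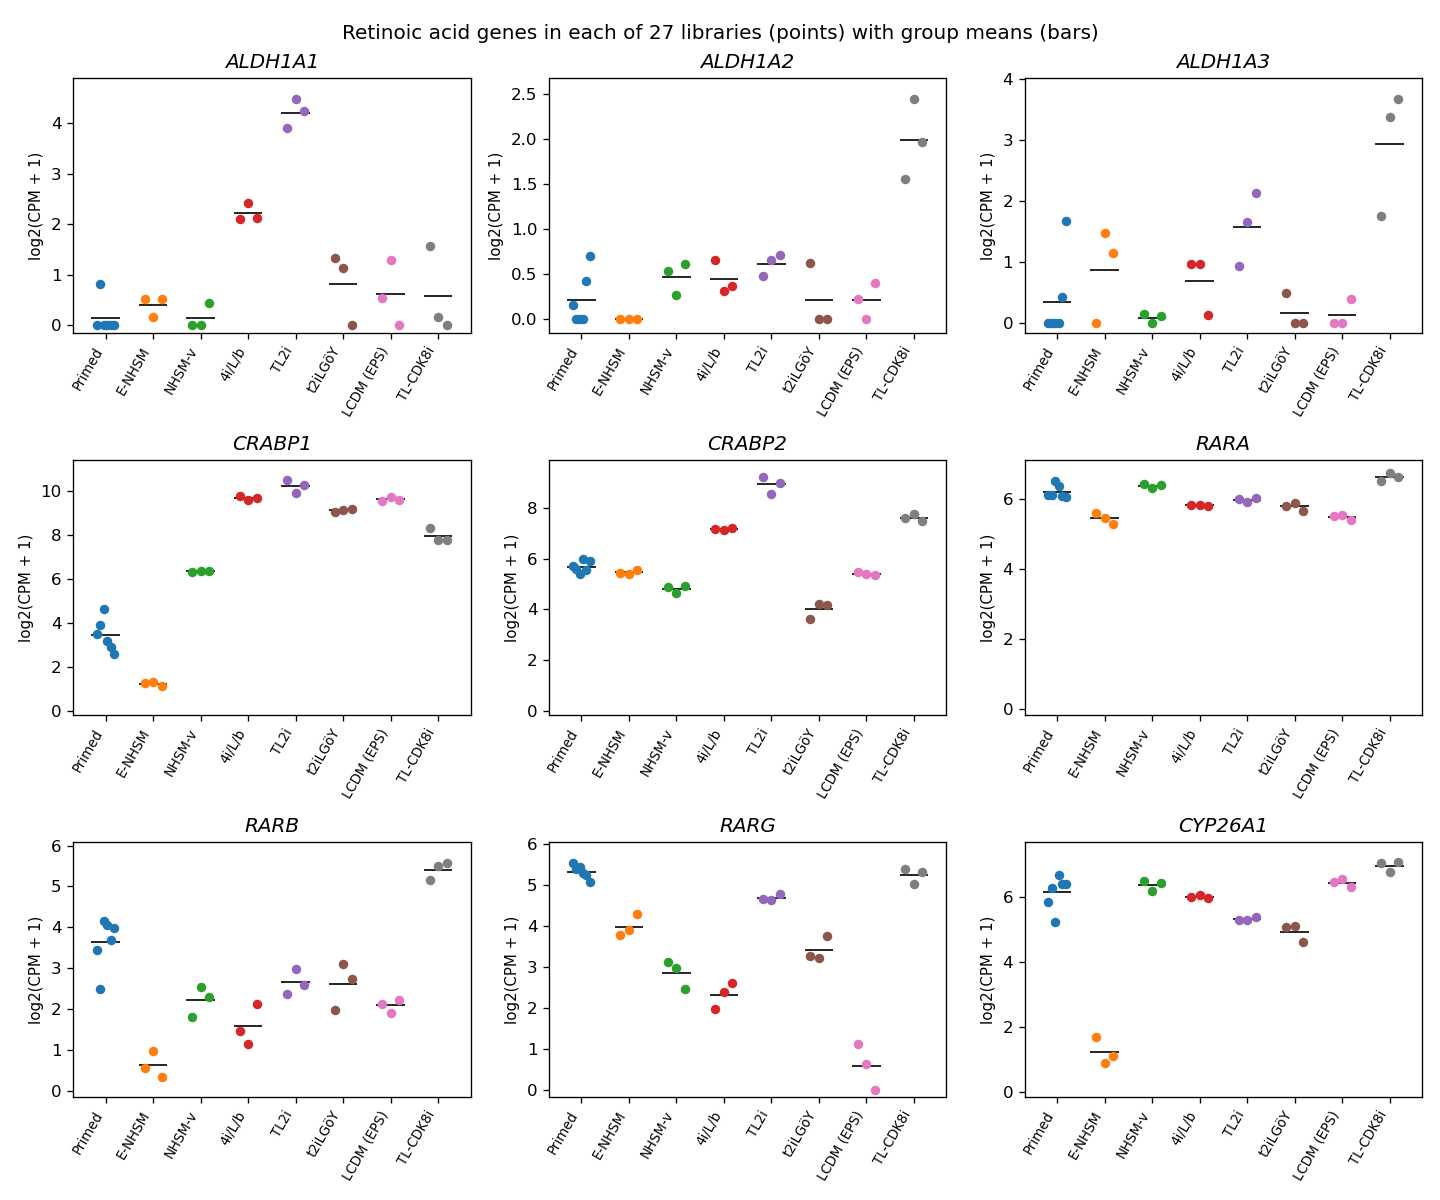
Level of each gene as log2(CPM + 1) in every library (points), with the mean of these values per group (bars), on a separate vertical scale for each gene. CRABP1 and RARG spread over the groups with little overlap, whereas ALDH1A1, ALDH1A2, and ALDH1A3 lie near 0 outside TL2i, 4i/L/b, and TL-CDK8i.

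CRABP1 had the widest range of the 9 genes, 9.61 between the lowest and highest group means on a log2 scale. Primed libraries had 5.14 CPM at the lowest, 9.30 at the median, and 23.7 at the highest. TL2i libraries had 1424, 954, and 1249.6 CPM, 4i/L/b libraries 874, 769, and 818, and LCDM (EPS) libraries 742, 843, and 764. The group ranges did not overlap between neighbors in the order TL2i, 4i/L/b, LCDM (EPS), t2iLGöY, TL-CDK8i, NHSM-v, primed, E-NHSM, except between 4i/L/b and LCDM (EPS). The t2iLGöY libraries had 521, 553, and 583 CPM, TL-CDK8i 319, 217, and 219, and NHSM-v 78.0, 81.9, and 82.0. E-NHSM libraries, with a mean of 1.38 ± 0.173 CPM (SD, n = 3), were below every primed library.

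In fold terms CRABP1 was 111 times the primed level in TL2i (log2 fold change 6.79, SE 0.33, adjusted p = 1.3e-09) and 73.2 times in 4i/L/b (6.19, SE 0.32, adjusted p = 2.12e-09), where it was the 151st most increased of 13558 genes. It was 72.1 times in LCDM (EPS), 51.6 times in t2iLGöY, 22.1 times in TL-CDK8i, and 7.12 times in NHSM-v, with an adjusted p of at most 3.83e-06. In E-NHSM it was 8.16-fold lower (log2 fold change -3.03, SE 0.52, adjusted p = 0.000261). Primed J libraries (10.4 to 23.7 CPM) did not overlap K libraries (5.14 to 8.22 CPM). Against the K libraries alone, the log2 fold changes were larger in the 6 protocols (7.49 in TL2i, 3.57 in NHSM-v) and smaller in E-NHSM (-2.26), with no call lost. Neuron markers rose in the 6 protocols where CRABP1 rose, but not in the same order. They summed to 496 to 529 CPM in TL2i, where CRABP1 was highest, and to 1049 to 1098 CPM in NHSM-v, where it rose least. All 5 were higher in LCDM (EPS), t2iLGöY, TL2i, NHSM-v, and 4i/L/b, and 3 of 5 were higher in TL-CDK8i. In E-NHSM, where CRABP1 fell, 1 of 4 tested was higher and 1 lower, and their summed CPM of 97.7 to 116 lay within the primed range. Their part in the CRABP1 result was not tested.

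CRABP2 did not follow CRABP1. Its TL2i libraries had 590, 376, and 508 CPM and its TL-CDK8i libraries 190.0, 216, and 179.7, against 40.4, 49.4, and 61.4 CPM for the lowest, median, and highest primed library. The 4i/L/b libraries had 140.5, 139, and 148 CPM (replicates 1 to 3), and none of these 3 groups overlapped primed cells. CRABP2 rose 9.63-fold in TL2i (log2 3.27, SE 0.14, adjusted p = 4.48e-10), 3.70-fold in TL-CDK8i (1.89, SE 0.13, adjusted p = 4.02e-08), and 2.72-fold in 4i/L/b (1.44, SE 0.12, adjusted p = 3.71e-07).

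CRABP2 fell where CRABP1 rose in NHSM-v and t2iLGöY. The NHSM-v libraries had 28.3, 24.3, and 29.2 CPM (log2 fold change -0.92, SE 0.17, adjusted p = 0.000244) and the t2iLGöY libraries 11.2, 17.3, and 17.1 CPM (-1.71, SE 0.21, adjusted p = 5.17e-06). Both groups lay below all primed libraries. In E-NHSM and LCDM (EPS) the log2 fold changes of -0.24 and -0.29 did not pass the test, and the latter did when primed J3 was left out (-0.35, adjusted p = 0.0375), when K libraries alone served as primed (-0.41, adjusted p = 0.0188), and with all 8 groups in 1 fit (-0.30, adjusted p = 0.0483).

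**Figure D4:**
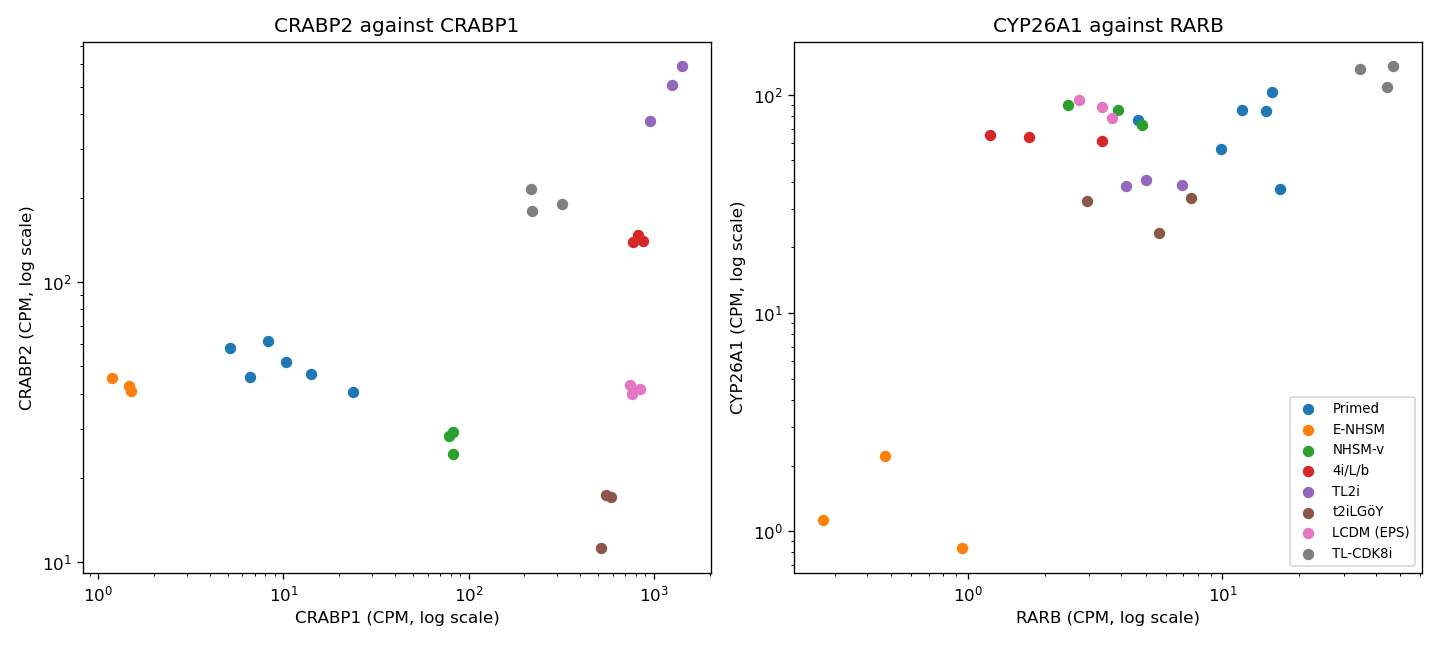
Level of CRABP2 against CRABP1 (left) and of CYP26A1 against RARB (right) in each library, in CPM on log axes, colored by group. On the left, t2iLGöY, LCDM (EPS), 4i/L/b, and TL2i have CRABP1 levels of 521 CPM or more and run from 11.2 to 590 CPM of CRABP2. On the right, E-NHSM is lowest and TL-CDK8i highest for both genes.

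Among the receptors, RARB, itself an RA target, had 4.64 CPM in the lowest, 13.4 in the median, and 16.9 in the highest primed library. The TL-CDK8i libraries, at 34.6, 44.3, and 47.0 CPM, were above all of them, and E-NHSM, at 0.471, 0.945, and 0.269 CPM, was below all of them. RARB rose 3.29-fold in TL-CDK8i (log2 1.72, SE 0.29, adjusted p = 0.000241) and was 21.8-fold lower in E-NHSM (-4.44, SE 0.55, adjusted p = 8.33e-06). It was 5.95-fold lower in 4i/L/b (1.73, 1.22, and 3.37 CPM, adjusted p = 0.000522), 3.77-fold in LCDM (EPS) (3.36, 2.73, and 3.68 CPM, adjusted p = 0.00138), and 3.34-fold in NHSM-v (2.48, 4.84, and 3.87 CPM, adjusted p = 0.00335).

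The falls of RARB in TL2i and t2iLGöY were the least firm. TL2i libraries had 4.17, 6.93, and 5.02 CPM and t2iLGöY libraries 2.93, 7.54, and 5.64, and both overlapped the lowest primed library. The log2 fold changes were -1.20 (SE 0.40, adjusted p = 0.0219) and -1.17 (SE 0.45, adjusted p = 0.0392). The TL2i call was lost without TL2i replicate 1 (adjusted p = 0.0981), without replicate 3 (0.0794), and with the primed J libraries alone (0.132). The t2iLGöY call was lost without t2iLGöY replicate 1 (adjusted p = 0.158) or 3 (0.0860), without primed J3 (0.0529), K1 (0.0661), K2 (0.0542), or K3 (0.0613), and with the J libraries alone (0.208).

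RARG, a receptor prominent in early embryonic RA responses, was highest in primed cells, at 32.4 CPM in the lowest, 39.4 in the median, and 45.2 in the highest library. TL-CDK8i libraries, at 41.1, 31.4, and 39.0 CPM, overlapped them, and the log2 fold change of -0.13 did not pass the test. All other groups were below every primed library. TL2i had 24.1, 23.7, and 26.4 CPM, E-NHSM 12.7 to 18.6, t2iLGöY 8.60, 8.41, and 12.5, NHSM-v 7.78, 6.89, and 4.58, and 4i/L/b 2.98, 4.25, and 5.10. The lowest group was LCDM (EPS), with 1.20, 0.566, and 0 CPM from 21, 12, and 0 counts.

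RARG was 66.7-fold lower in LCDM (EPS) than in primed cells (log2 fold change -6.06, SE 0.52, adjusted p = 2.4e-07). The value was -6.98 without LCDM (EPS) replicate 1 and -5.47 without replicate 3. The falls were 9.84-fold in 4i/L/b (adjusted p = 3.04e-08), 6.25-fold in NHSM-v (1.05e-07), 3.92-fold in t2iLGöY (1.65e-06), 2.62-fold in E-NHSM (2.19e-05), and 1.59-fold in TL2i (0.0019). Primed J libraries (40.8 to 45.2 CPM) did not overlap K libraries (32.4 to 38.1 CPM), and each of these 6 falls held against either letter alone.

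RARA, which is broadly expressed, had the narrowest range of the 9 genes, 1.20 between group means on the log2 scale. Primed libraries had 66.3, 69.0, and 91.3 CPM as lowest, median, and highest. RARA was 1.73-fold lower in E-NHSM (47.3, 43.1, and 38.1 CPM, adjusted p = 0.000414), 1.68-fold lower in LCDM (EPS) (44.6, 45.4, and 41.7 CPM, adjusted p = 0.000282), and 1.37-fold lower in 4i/L/b (56.0, 55.4, and 54.9 CPM, adjusted p = 0.00807). The t2iLGöY fall of 1.33-fold (adjusted p = 0.0219) was lost without replicate 1 (0.0585) or 3 (0.0927).

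RARA rose 1.29-fold in TL-CDK8i (91.0, 107, and 97.3 CPM, adjusted p = 0.0282), where 1 library lay within the primed range. The call was lost without TL-CDK8i replicate 2 (adjusted p = 0.145) or 3 (0.0553), without primed K2 (0.0566), and with the primed J libraries alone (0.0686). In NHSM-v (log2 fold change 0.13) and TL2i (-0.25) RARA did not pass the test.

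CYP26A1, which clears RA and is induced by it, gave the largest fall of any member in E-NHSM. Its E-NHSM libraries had 2.21, 0.834, and 1.13 CPM against 37.0, 80.7, and 103 CPM in the lowest, median, and highest primed library. The fall was 51.9-fold (log2 fold change -5.70, SE 0.37, adjusted p = 3.11e-09), the 77th largest of 13304 genes. Of the pluripotent markers in E-NHSM, 3 of 7 were higher, 2 lower, and 2 not called, while 5 of 6 fibroblast markers tested fell. In TL2i, where CYP26A1 also fell, 7 of 8 fibroblast markers rose and 1 fell. Among the 8, LUM and DCN had 0 counts in primed cells and could only be higher in TL2i.

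CYP26A1 was highest in TL-CDK8i, with 132, 108, and 135 CPM, above all primed libraries. The rise of 1.63-fold (log2 0.71, SE 0.22, adjusted p = 0.0183) was lost without TL-CDK8i replicate 1 (adjusted p = 0.0646) or 3 (0.0620). It fell 1.89-fold in TL2i (38.2, 38.5, and 40.8 CPM, adjusted p = 0.00604) and 2.42-fold in t2iLGöY (32.6, 33.8, and 23.3 CPM, adjusted p = 0.000781), the former within the primed range and the latter below it. In NHSM-v, 4i/L/b, and LCDM (EPS) the log2 fold changes of 0.13, -0.26, and 0.23 did not pass the test.

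The primed letter mattered for CYP26A1, since J libraries (37.0 to 76.8 CPM) did not overlap K libraries (84.6 to 103 CPM). Against J alone, CYP26A1 was higher in LCDM (EPS) (log2 0.62, adjusted p = 0.0377) and the TL2i fall was lost (-0.54, adjusted p = 0.0791). Against K alone, it was lower in 4i/L/b (-0.54, adjusted p = 0.000787). The E-NHSM, t2iLGöY, and TL-CDK8i calls held against either letter.

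The second question was how TL-CDK8i and TL2i differed, which share tamoxifen and LIF. All 9 genes were tested and called. The 6 that were higher in TL-CDK8i, against 31.5% of all genes, were ALDH1A2, ALDH1A3, all 3 receptors, and CYP26A1. The 3 that were lower, against 33.3% of all genes, were ALDH1A1, CRABP1, and CRABP2. ALDH1A1 passed the filter on low counts through TL2i and ALDH1A2 through TL-CDK8i, so the filter set their direction and they add nothing to these counts. ALDH1A1 was thus the synthesizing enzyme higher in TL2i, and ALDH1A2 and ALDH1A3 were those higher in TL-CDK8i.

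ALDH1A1 had 17, 1, and 0 counts in TL-CDK8i and 252 to 365 in TL2i, a 27.4-fold difference (log2 -4.78, SE 0.55, adjusted p = 5.05e-06) that ranked 20th among the falls of 13729 genes. The log2 value was -8.22 without TL-CDK8i replicate 1 and -4.12 without replicate 3. ALDH1A2 was 5.65-fold higher in TL-CDK8i (adjusted p = 0.000427) and ALDH1A3 3.66-fold (adjusted p = 0.00519). RARB was 7.65-fold higher (log2 2.94, SE 0.19, adjusted p = 1.96e-08), CYP26A1 3.12-fold (1.64, SE 0.11, adjusted p = 2.11e-08), RARA 1.55-fold, and RARG 1.47-fold. CRABP1 was 4.90-fold lower (log2 -2.29, SE 0.17, adjusted p = 7.45e-08) and CRABP2 2.57-fold lower (-1.36, SE 0.14, adjusted p = 1.5e-06).

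With all 8 groups in 1 fit, the calls of ALDH1A2 (adjusted p = 0.146), ALDH1A3 (0.329), and RARG (0.131) between TL-CDK8i and TL2i were lost, while the other 6 held. Of the pluripotent markers, 6 of 7 were higher in TL-CDK8i than in TL2i, and all 5 neural crest markers were lower. Also higher in TL-CDK8i were 4 of 5 markers of paraxial and presomitic mesoderm and 4 of 8 of fibroblasts, and also lower were 4 of 5 of neural progenitors, 3 of 5 of neurons, and 4 of 5 of endoderm. The part of these cell type markers in the difference was not tested.

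Beyond the 9 genes, 23 of 24 listed RA response genes were in the tables, mainly anterior HOX genes of the A and B clusters, their MEIS and PBX partners, and direct targets. In E-NHSM 7 of 15 tested fell, the other 8 were not called, and the median log2 fold change was -2.26, beside 0.02 over all genes. In TL2i 13 of 20 rose and 3 fell (median 2.43, beside 0.07 over all genes). The counts were 10 higher and 3 lower of 19 in 4i/L/b, 9 and 4 of 18 in NHSM-v, 9 and 6 of 19 in t2iLGöY, 8 and 6 of 19 in LCDM (EPS), and 10 and 2 of 20 in TL-CDK8i. These 6 medians lay between 0.76 and 2.43, and those over all genes between -0.02 and 0.07. In the 6 protocols 22.3% to 28.2% of all genes were higher and 23.8% to 30.6% lower, so the lower counts in t2iLGöY and LCDM (EPS) are near the share of all genes. In E-NHSM 15.1% of all genes were lower. The median of the list was thus below 0 in E-NHSM and above 0 in the other 6 protocols. Listed genes that passed the filter on low counts only through the protocol, such as HOXA2, had to be higher there and add nothing to these counts.

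HOXA2, a hindbrain patterning gene, and MEIS2, a HOX cofactor, were the response genes that rose most over LCDM (EPS), t2iLGöY, TL2i, NHSM-v, and 4i/L/b. HOXA2 averaged 0.127 CPM in primed cells and 45.3 ± 4.23 CPM in NHSM-v (SD, n = 3), a log2 fold change of 8.07 (SE 0.59, adjusted p = 1.73e-08). With 0 to 9 counts in primed libraries, HOXA2 passed the filter on low counts through NHSM-v. Its direction was thus set by the filter, and the size of the fold rests on few primed counts. MEIS2 averaged 8.31 ± 4.57 CPM in primed cells (SD, n = 6) and 490.1 ± 13.5 CPM in LCDM (EPS) (SD, n = 3), a log2 fold change of 5.94 (SE 0.29, adjusted p = 7.58e-10), and it fell in E-NHSM (-2.99, SE 0.60, adjusted p = 0.00104). RARRES2, which encodes the secreted protein chemerin, went against the list. It fell in all 7 protocols. Its mean was 33.5 ± 6.38 CPM in primed cells (SD, n = 6) against 0.611 ± 0.570 CPM in NHSM-v (SD, n = 3, log2 -5.79, adjusted p = 9.06e-08).

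**Figure D5:**
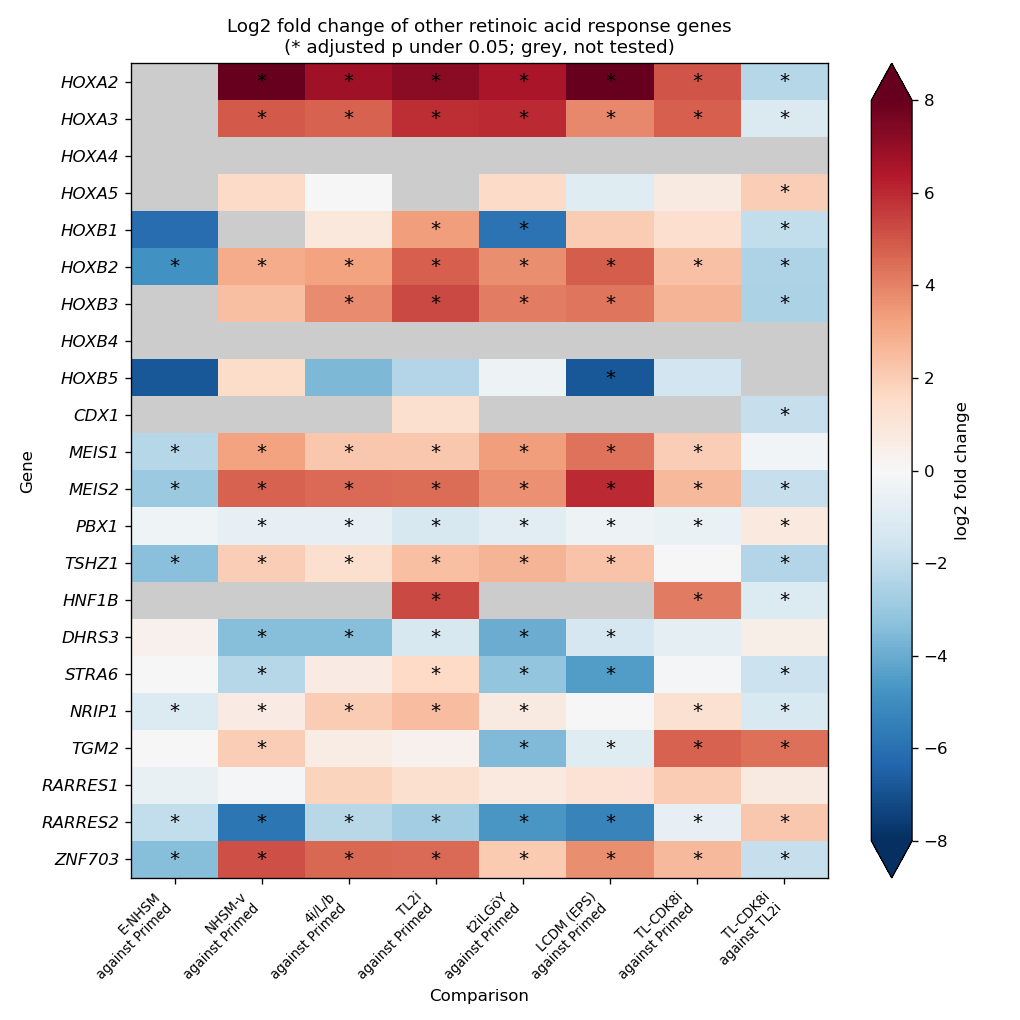
Log2 fold change (color, limited to 8 in either direction) of 22 other RA response genes in 8 comparisons, with an asterisk for an adjusted p under 0.05 and grey for genes not tested. HOXA2, MEIS2, and ZNF703 are higher than in primed cells in 6 of 7 protocols, and RARRES2 is lower in 7.

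DHRS3, which turns retinaldehyde back into retinol and is itself RA-induced, was the other response gene that fell most. Its mean was 7.98 ± 2.40 CPM in primed cells (SD, n = 6) and 9.96 ± 0.553 CPM in E-NHSM (SD, n = 3), where it was not called (log2 fold change 0.32). It fell in NHSM-v (-3.43), 4i/L/b (-3.39), t2iLGöY (-4.00), LCDM (EPS) (-1.33), and TL2i (-1.28), with an adjusted p of at most 0.0258. In TL-CDK8i, where RARB and CYP26A1 rose, the DHRS3 mean of 4.73 ± 0.545 CPM (SD, n = 3) was below the primed mean. Its TL-CDK8i libraries, at 4.35 to 5.35 CPM, lay within the primed range of 3.81 to 10.6 CPM. In E-NHSM, CYP26A1 was thus called lower and DHRS3 was not called, and the difference between the genes was not tested.

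DHRS3 also belongs to the 20 genes of retinoid supply, which hold retinol carriers and the enzymes that make or use retinaldehyde. Of these, 12 to 15 were tested per protocol, 1 to 4 were higher and 1 to 6 lower, and the medians lay between -0.99 and 0.23. Several of these counts are near the share of all genes, such as 4 of 15 higher in TL2i, where 25.6% of all genes were higher, and 4 of 14 in 4i/L/b, against 26.6%. The most lower calls were 6 of 12 in LCDM (EPS) and 6 of 13 in t2iLGöY, against 28.9% and 27.2% of all genes. TTR, a plasma carrier of thyroxine, had 148 ± 22.9 CPM in t2iLGöY (SD, n = 3) and means of at most 1.96 CPM in all other groups. ADH4, an alcohol dehydrogenase that oxidizes retinol, had 9.67 ± 2.81 CPM in primed cells (SD, n = 6) and fell in all protocols, with means of at most 0.912 CPM, except E-NHSM (8.66 ± 1.16 CPM, SD, n = 3).

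The last list held 11 genes, the RXR receptors, coregulators, and FABP5 and PPARD, which form an alternative route for RA. NRIP1, a corepressor induced by RA, had 82.1 ± 6.03 CPM in primed cells (SD, n = 6) and 458 ± 21.5 CPM in TL2i (SD, n = 3, log2 2.48, adjusted p = 3.41e-11), and fell in E-NHSM (-1.10, adjusted p = 6.56e-06). RXRG was highest in t2iLGöY, at 38.8 ± 2.52 CPM (SD, n = 3, log2 5.92, adjusted p = 1.33e-05). FABP5 fell in NHSM-v (-1.94), 4i/L/b (-1.46), TL2i (-0.85), LCDM (EPS) (-0.47), and TL-CDK8i (-1.30) and rose in E-NHSM (0.68), with an adjusted p of at most 0.00587. In NHSM-v 8 of the 11 genes rose and 1 fell, in LCDM (EPS) 7 and 2, in TL2i and t2iLGöY 6 and 1, in 4i/L/b 5 and 1, in TL-CDK8i 2 and 1, and in E-NHSM 2 of 10 rose and 4 fell. The shares of all genes higher and lower were 28.0% and 30.6% in NHSM-v, 28.2% and 28.9% in LCDM (EPS), 25.6% and 25.2% in TL2i, 27.1% and 27.2% in t2iLGöY, 26.6% and 29.0% in 4i/L/b, 22.3% and 23.8% in TL-CDK8i, and 11.1% and 15.1% in E-NHSM. The medians of the list lay between 0.0024 in E-NHSM and 0.70 in NHSM-v, beside -0.02 to 0.07 over all genes. NRIP1, DHRS3, and STRA6 each stand in a pair of these lists.

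For the 3 members of widest range, the genes of most alike pattern were sought over the 27 libraries, which share groups and depth, on log2 CPM. For CRABP1 they were ANP32B (Pearson's r = 0.981), CNTFR (0.963), and CENPV (0.956). For CYP26A1 they were HMGA2 (0.908), IER5 (0.905), and PPP1R18 (0.903). For ALDH1A1 they were NELL1 (0.886), DPP4 (0.886), and RFX6 (0.871). These values describe likeness between libraries of 8 groups and carry no test.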

How the data were processed

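Messenger RNA of 27 rhesus macaque stem cell libraries was measured by RNA-seq (directional libraries, single reads). The authors deposited a raw count for each gene symbol in each library, without pooling. Per the labels, processing used bcl2fastq, cutadapt, HISAT2, and HTSeq, with versions, genome build, and annotation not given in the sources used here, so how shared reads, or feeder cell reads if there were any, were counted is unknown. Columns were mapped to groups by name (0 left over), those of primed cells to the group only, because the labels of the primed sets disagree for 2 libraries and the column letters were not assigned to sets. Replicates were compared by chi-square, and the 36 within-group pairs differed by 3.98 to 29.8 per gene, where counting noise alone gives about 1, so none was taken as a duplicate.

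TMM-scaled CPM and the quasi-likelihood test came from edgeR 4.0.16 (limma 3.58.1, R 4.3.3), fitted on each comparison's own libraries, with filterByExpr and Benjamini-Hochberg adjustment over all genes tested (threshold 0.05). A standard error is the absolute log2 fold change over the square root of F. A gene was at the floor in a group when each library held 3 counts or fewer. Alternatives were DESeq2 1.42.0, upper-quartile scaling, no filter, at least 10 counts in every library, all 8 groups in 1 fit, a minimum log2 fold change of 1, each library left out, and primed libraries of 1 letter.

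The members and lists were chosen with earlier results of these data known. List genes are named for the 2 largest mean rises and 2 largest falls over LCDM (EPS), t2iLGöY, TL2i, NHSM-v, and 4i/L/b at a mean of at least 1 CPM, except that FABP5 alone of its list fell. Some genes of the lists are counted but not reported singly here. CYP26B1, CYP26C1, and HOXD4 were not analysed here. For likeness, the 3 genes of highest correlation were taken.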

Additional observations from a re-analysis of the deposited data

Results flagged for a closer look

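Dixon's test, run on the 6 primed libraries alone, flagged a value far from the others for 2 of the 9 genes. Its rate of about 1 in 20 groups by chance does not hold for these genes, whose primed counts were mostly 0. ALDH1A1 had 0.755 CPM in primed library J2 and 0 counts in the other 5 primed libraries, so it was flagged whatever the count in J2. ALDH1A3 had 2.22 CPM in primed library K3, and the next highest primed library, K2, had 0.346 CPM. The ALDH1A1 rises in TL2i and 4i/L/b and the ALDH1A3 rise in TL-CDK8i were called with and without these libraries, and ALDH1A3 was called higher in TL2i when K3 was left out (log2 fold change 4.54, adjusted p = 0.00947).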

How the results depend on the processing

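The number of members called stayed within 1.5 times its value under all alternatives except in TL-CDK8i against primed cells, where leaving out each library in turn gave 4 to 7 calls (7 with all libraries). The value of 4 came without TL-CDK8i replicate 2 (ALDH1A2, ALDH1A3, and RARA lost) and without replicate 3 (ALDH1A3, RARA, and CYP26A1 lost), and the cause was not tested. Over all single-gene values under these alternatives, 310 of those higher and 372 of those lower kept their call and direction, 13 and 13 lost the call, and 8 that had not been called gained one. Directions turned 5 times, in genes not called in either setting. With the primed K libraries alone the log2 fold change was -0.16 for CYP26A1 in NHSM-v, -0.064 for CYP26A1 in LCDM (EPS), -0.35 for ALDH1A3 in 4i/L/b, and 0.0027 for RARG in TL-CDK8i, and with the J libraries alone it was 0.14 for CYP26A1 in 4i/L/b. RARA in TL2i was called lower with all 8 groups in 1 fit (adjusted p = 0.0386). Over all genes, 3486 were called in E-NHSM against primed cells and 5255 with all 8 groups in 1 fit. Scaling by total counts moved 9 of 72 group means by more than their SD, by a factor of 0.931 to 1.08.

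The replicate block could be fitted for TL-CDK8i against TL2i, where all 9 members stayed called with the same directions (9 with the block), and 8420 genes were called in place of 8906. Deviations of same-numbered libraries correlated at -0.145, -0.030, and -0.0047, and not every library correlated best with its own number, so the numbers were not taken as pairs. No paired analysis was possible against primed cells because the primed columns carry no label number.

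ALDH1A1, ALDH1A2, and ALDH1A3 rest on few counts in most groups, so differences between their low groups were not detectable at this depth.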

Other observations

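TGM2, a transglutaminase gene long known as an RA target, and STRA6 were chosen here after their values were seen. TGM2 had 206 to 318 CPM in TL-CDK8i libraries against 7.12 to 12.4 CPM in primed and 8.43 to 14.1 CPM in TL2i libraries. It rose against primed cells (log2 fold change 4.72, SE 0.17, adjusted p = 1.47e-10) and against TL2i (4.41, SE 0.19, adjusted p = 4.21e-10) by edgeR's quasi-likelihood test, and fell in t2iLGöY (-3.54, adjusted p = 2.67e-05). STRA6, a membrane transporter of retinol, had 75.5 to 95.2 CPM in TL2i and 1.02 to 1.57 CPM in LCDM (EPS), against 13.5 to 43.3 CPM in primed libraries. It rose in TL2i (1.62, adjusted p = 0.000631) and fell in LCDM (EPS) (-4.46, adjusted p = 2.17e-06).

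Markers of trophoblast and amnion, 7 genes, summed to 182 to 259 CPM in TL-CDK8i, 107 to 148 CPM in primed cells, and 0.902 to 37.6 CPM in LCDM (EPS), t2iLGöY, TL2i, NHSM-v, and 4i/L/b. Single genes made up most of the TL-CDK8i and primed sums. KRT7 averaged 162 CPM in TL-CDK8i and 2.98 CPM in primed cells, whereas VTCN1 averaged 38.4 and 116 CPM. Those of paraxial and presomitic mesoderm summed to at most 21.1 CPM in any library, with MSGN1 at 0 in all libraries, and those of endoderm to at most 76.7 CPM. The 10 markers of neural progenitors summed to 1216 to 1352 CPM in E-NHSM and 2228 to 2571 CPM in primed cells, mostly from NES (means of 1293 and 2431 CPM). The sum hides other progenitor markers, of which 6 of 8 tested were higher in t2iLGöY and 6 of 8 in LCDM (EPS), with PAX6 averaging 155 and 66.5 CPM there and 3.45 CPM in primed cells. The 5 markers of neural crest summed to 449 to 617 CPM in TL2i and 115 to 142 CPM in primed cells. The part of these markers in the levels of the RA genes was not tested.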
